A study of Zea mays with 24 samples.

Results

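The MIR167 precursor loci of maize (zma-MIR167) are the genes from whose transcripts the microRNA miR167 is cut. Every row of the 24 count tables whose name starts with zma-MIR167 and that held at least 10 reads summed over all libraries was taken, which gave 8 of the 9 MIR167 rows, 8 of 154 microRNA loci and 8 of 41768 features in all. The 8 loci were zma-MIR167a, zma-MIR167b, zma-MIR167c, zma-MIR167d, zma-MIR167e, zma-MIR167g, zma-MIR167h and zma-MIR167j, written below without the species prefix. MIR167b, with 20 reads, and MIR167j, with 120, were the lowest inside that limit, and MIR167f, with 0 reads in all libraries, was the row outside it. The libraries came from 6 dissected parts of the seed of the untreated wild-type B73, an inbred maize line, raised under glass with 16 h of light a day at 24 °C and nights at 19 °C. They were the endosperm adjacent to the scutellum (EAS), the scutellar aleurone layer (SAL), the apical scutellum (AS), the pericarp (Per), the embryo (Emb) and the endosperm (End), with 4 libraries each. For SAL replicate 1 the genotype label says wild type and names no line. Seed age after pollination is not given in the sources used here, and the labels do not say whether Emb samples held apical scutellum or End samples held EAS and SAL tissue.

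In plants, miR167 guides the cutting of transcripts of the auxin response factors ARF6 and ARF8, transcription factors that turn on genes in reply to the hormone auxin. In Arabidopsis, this pair of factors and miR167 are known for their part in flower and seed development, including growth of the maternal ovule coats. A microRNA gene is transcribed by RNA polymerase II into a capped, polyadenylated precursor with a hairpin, from which the short mature strand is cut, and related loci can yield the same or nearly the same mature strand. In the seed, the embryo and the endosperm arise from fertilisation and the pericarp is maternal fruit wall. The scutellum is the embryo's cotyledon, which lies against the endosperm, and the aleurone is the outer endosperm layer. The libraries were poly(A)-selected, so the counts are of polyadenylated transcripts that overlap the annotated rows, and they do not measure the mature microRNA. Whether those transcripts were still uncut cannot be told from the counts.

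In the maize assembly Zm-B73-REFERENCE-NAM-5.0, each of the 8 loci lies inside a RefSeq gene of the long non-coding RNA class, and MIR167b lies inside a protein-coding gene as well. MIR167a and MIR167g are next to each other on one chromosome, and the 1 gene that starts between them is the non-coding RNA gene that holds MIR167g. The counts were made on another build, B73 RefGen_v4, so positions are not given. The tissue labels could not be set against marker genes, because 0 of 41614 gene identifiers matched the gene table at hand.

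Reads counted in features ranged from 15.1 M in SAL replicate 2 to 61.1 M in Emb replicate 2 (M, mega), and 37.6 M was the next lowest. All MIR167 rows together held 23383 reads, of which MIR167g held 80.4%. Levels below are CPM (counts per M reads, on library sizes scaled by TMM factors), as mean ± SD over the 4 libraries of a tissue. Where a tissue held 0 reads of a locus, the level that 3 reads over its 4 libraries would give was between 0.0138 CPM in Emb and 0.0213 CPM in End. A fold given below as "at least" is the ratio of reads summed over the 4 libraries of a tissue, per summed scaled library size, to 3 such reads in the tissue with none. It weights deep libraries more than the means of CPM do and so can differ from a ratio of those means. Floors, bounds and intervals cover counting error alone. In bulk tissue, fewer cells that make a transcript and less of it per cell cannot be told apart.

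The MIR167 reads were most abundant in EAS and End. Their sum was 46.4 ± 5.97 CPM in EAS, 6.72 ± 1.96 in SAL, 6.31 ± 1.47 in AS, 7.24 ± 0.938 in Per, 12.8 ± 2.84 in Emb and 62.9 ± 3.70 in End. The loci that held most of the reads varied with the tissue. MIR167g took nearly all reads in EAS and End, MIR167g and MIR167a shared most of them in Emb and AS, and MIR167g, MIR167h and MIR167e shared most of them in Per.

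**Figure D1:**
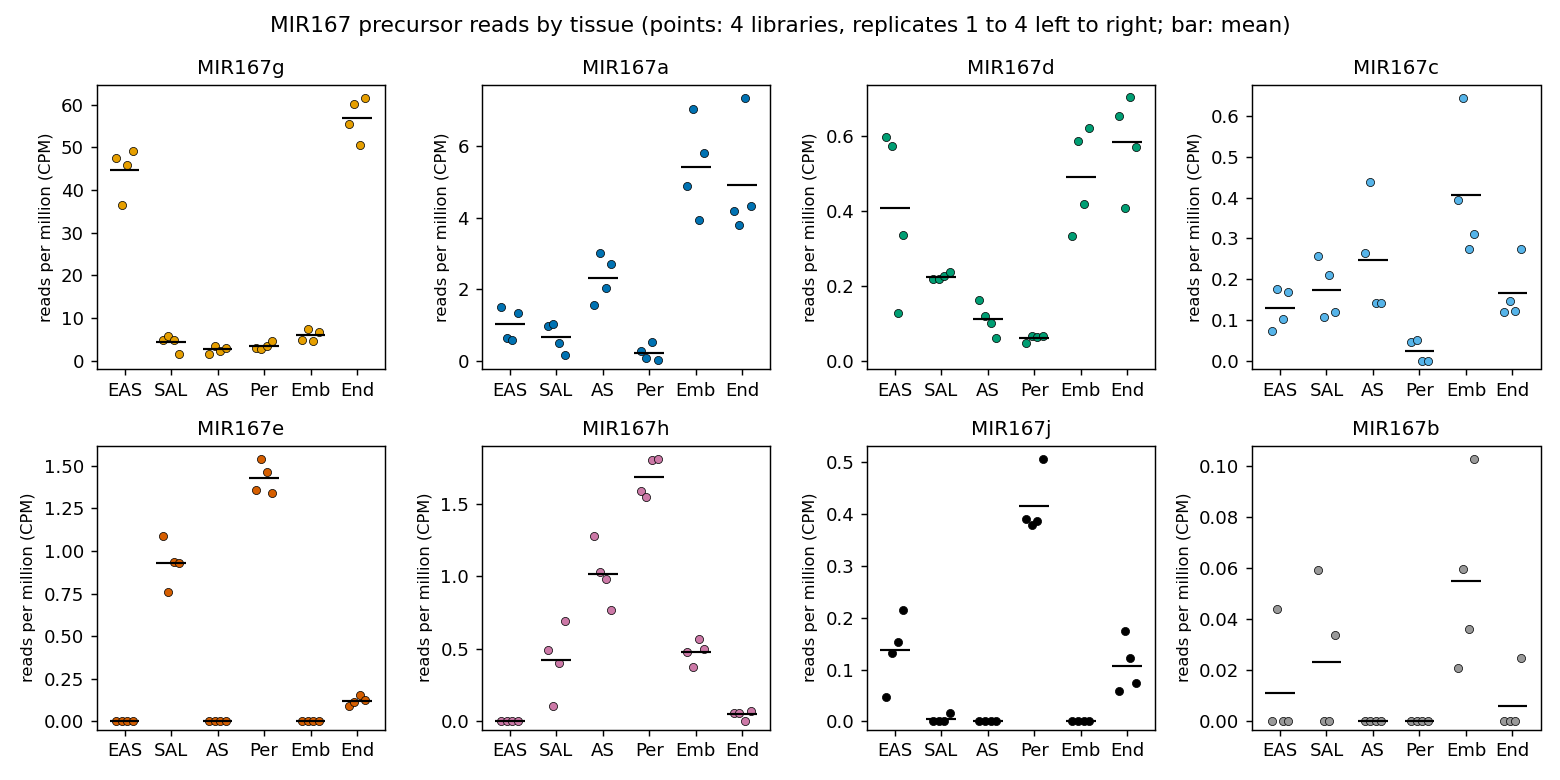
Level of each of the 8 loci in CPM (linear vertical axes, each with its own scale) in the 6 tissues; points are the 4 libraries, with replicates 1 to 4 from left to right, and bars are means. MIR167g is highest in End and EAS, MIR167a in Emb and End, and MIR167e, MIR167h and MIR167j in Per.

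MIR167g was the most abundant locus. In EAS it stood at 47.6, 36.4, 45.9 and 49.1 CPM in replicates 1 to 4, in SAL at 4.85, 5.85, 4.78 and 1.66, and in AS at 1.47, 3.54, 2.37 and 3.07. Per had 2.92, 2.65, 3.54 and 4.54 CPM, Emb 4.95, 7.46, 4.70 and 6.66, and End 55.5, 60.1, 50.6 and 61.6. EAS and End lay far above the other 4 tissues with no overlap, and SAL replicate 4, the library whose harvest date is not specified, was the lowest of its tissue. MIR167g was lower than in End in SAL (fitted log2 fold -3.78, SE 0.29, edgeR adjusted p = 1.56e-10), in AS (-4.44, SE 0.30, edgeR adjusted p = 9.35e-12), in Per (-4.07, SE 0.29, edgeR adjusted p = 3.07e-11) and in Emb (-3.26, SE 0.28, edgeR adjusted p = 4.85e-10). It was higher in EAS than in SAL (fitted log2 fold 3.43, SE 0.29, edgeR adjusted p = 4.62e-10) and than in AS (4.10, SE 0.29, edgeR adjusted p = 2.58e-11).

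Between the endosperm parts, MIR167g averaged 44.7 ± 5.75 CPM in EAS and 56.9 ± 4.98 CPM in End. The libraries did not overlap, but the difference did not pass the test (fitted log2 fold -0.35, SE 0.25, edgeR adjusted p = 0.234). With the 8 libraries of EAS and End alone in the fit, the same difference had an adjusted p of 0.00768. Emb, SAL, Per and AS followed, in that order of means. Of these neighbours, SAL did not pass the test against Emb (log2 fold change -0.52, edgeR adjusted p = 0.0914), nor against Per (0.29, edgeR adjusted p = 0.390), nor did AS against Per (-0.38, edgeR adjusted p = 0.239). The second of these rested on SAL replicate 4: without it, the difference of SAL from Per was 0.58 with an adjusted p of 0.0288. The first was past the threshold without SAL replicate 2, the shallow library (-0.67, adjusted p = 0.0446). MIR167g was lower in AS than in Emb (fitted log2 fold -1.19, SE 0.29, edgeR adjusted p = 0.00239) and lower in Per than in Emb (-0.81, SE 0.28, edgeR adjusted p = 0.0113).

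MIR167a, the neighbour of MIR167g, had its highest levels in Emb and End. Its levels were 1.5, 0.638, 0.564 and 1.34 CPM in EAS, 0.970, 1.03, 0.483 and 0.169 in SAL, and 1.55, 3.0, 2.03 and 2.70 in AS. In Per it had 0.276, 0.0661, 0.515 and 0.0220 CPM, in Emb 4.88, 7.04, 3.92 and 5.81, and in End 4.19, 3.78, 7.34 and 4.32. Emb and End overlapped and lay above the libraries of EAS, SAL, AS and Per. The difference of Emb from End was small beside its error (fitted log2 fold 0.14, SE 0.42, edgeR adjusted p = 0.757), which does not show that they are equal. MIR167a was lower in EAS than in End (fitted log2 fold -2.27, SE 0.47, edgeR adjusted p = 0.000222), where MIR167g did not pass the test. It was also lower in EAS than in Emb (fitted log2 fold -2.42, SE 0.46, edgeR adjusted p = 5.49e-05), where MIR167g was higher in EAS (2.91, SE 0.27, edgeR adjusted p = 2.21e-09). Per held the least of it, lower than Emb (fitted log2 fold -4.65, SE 0.55, edgeR adjusted p = 7.84e-08) and End (-4.51, SE 0.56, edgeR adjusted p = 1.49e-07). The difference of AS from Emb (-1.22, SE 0.43, edgeR adjusted p = 0.0291) was no longer called without AS replicate 1 or 3 or without Emb replicate 2 or 4 (adjusted p from 0.0604 to 0.0906).

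The coefficient of variation between libraries was larger for MIR167a than for MIR167g in 5 tissues, and the reverse in AS. For MIR167a it was 47.4% in EAS, 103% in Per and 33.3% in End, where counting error alone gives 15.3%, 31.2% and 7.64%. That of MIR167g was 12.8% in EAS, 24.6% in Per and 8.74% in End. In Per, MIR167a was read 12, 4, 24 and 1 times in replicates 1 to 4, so its Per level rests on few reads. The call of SAL above Per (log2 fold change 1.5, edgeR adjusted p = 0.0347) had an adjusted p of 0.0573 with the replicate number as a block, and it was also lost without SAL replicate 1 or 2 or Per replicate 2 or 4 (adjusted p from 0.0786 to 0.149).

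The ratio of reads between MIR167g and MIR167a, taken within a library and so free of library scaling, set AS and Emb apart from EAS, SAL, Per and End. In AS there were 72, 178, 118 and 152 reads of MIR167g beside 76, 151, 101 and 134 of MIR167a. In Emb there were 238, 498, 258 and 322 beside 235, 470, 215 and 281. The loci were thus read nearly equally often in each of these 8 libraries, between 0.947 and 1.2 reads of MIR167g per read of MIR167a. Over the 4 libraries of a tissue, the reads of MIR167g per read of MIR167a came to 44.1 in EAS, 6.93 in SAL, 16.0 in Per and 11.8 in End. Per length of the RefSeq precursor, MIR167g had 24.5 CPM per kb in Emb beside 28.5 for MIR167a, and 10.7 in AS beside 12.2, whereas in End it had 234 beside 25.8.

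On the log2 scale, with 0.5 added to each count, the ratio of MIR167g to MIR167a was 5.57 ± 0.61 in EAS, 2.83 ± 0.50 in SAL, 0.14 ± 0.15 in AS, 4.59 ± 1.96 in Per, 0.14 ± 0.11 in Emb and 3.58 ± 0.54 in End (SD, n = 4). EAS, SAL, Per and End lay above AS and above Emb with no overlap of libraries, each at an exact two-sided permutation p of 0.0286, the lowest value possible with 4 libraries on each side, and 0.0451 adjusted over 30 tests. The ratio was also higher in EAS than in End by 1.99, and higher in EAS than in SAL by 2.74, at the same exact p. AS and Emb differed by 0.00 (exact permutation p = 0.971). Per spread from 2.76 to 7.11 and overlapped with SAL, End and EAS. In all, 10 of the 15 pairs of tissues passed the test.

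**Figure D2:**
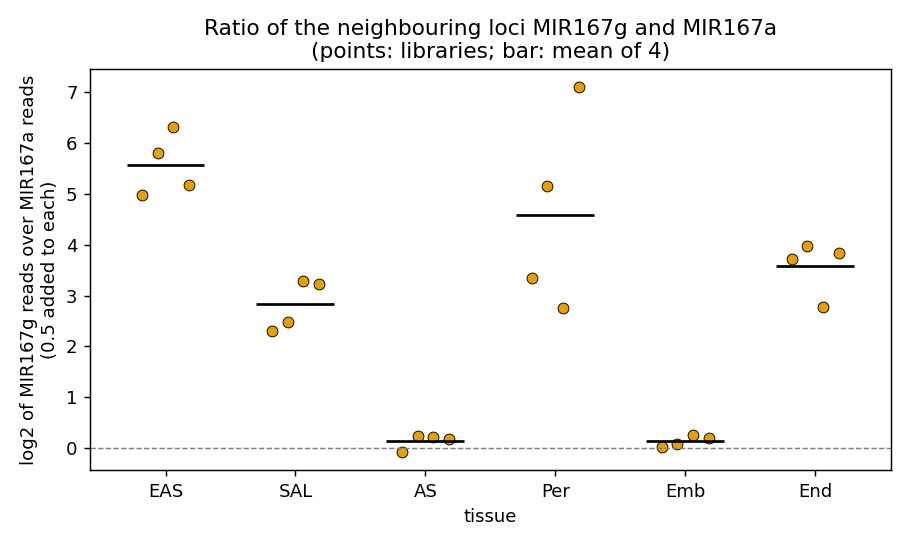
Log2 ratio of MIR167g to MIR167a reads (0.5 added to each count) by tissue; points are libraries, bars the mean of 4, and the dashed line marks equal counts. AS and Emb sit at the line with means of 0.14, and EAS is highest at 5.57.

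MIR167g took 96.3% ± 1.10 of all MIR167 reads in EAS, 61.1% ± 13.0 in SAL, 40.6% ± 6.49 in AS, 46.6% ± 5.64 in Per, 46.5% ± 1.32 in Emb and 90.4% ± 3.21 in End. EAS libraries lay above those of End, and both above those of the other 4 tissues, with no overlap (exact permutation p = 0.0286, adjusted p = 0.0451 over 30 tests, 9 of 15 pairs). Among SAL, AS, Per and Emb, none of the 6 pairs passed (exact permutation p from 0.0571 to 1). What filled the rest differed: MIR167a took 42.2% ± 2.11 in Emb and 36.5% ± 3.03 in AS but 3.03% ± 2.93 in Per. MIR167h took 23.4% ± 1.22 in Per and 17.2% ± 7.15 in AS, and MIR167e 20.0% ± 3.44 in Per and 15.1% ± 6.30 in SAL. Counted per length of the RefSeq precursor, MIR167g held 94.5% in EAS, 32% in Per and 87.3% in End, and MIR167a held more than MIR167g in AS (36.9% beside 32.1%) and Emb (44.7% beside 38.5%).

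**Figure D3:**
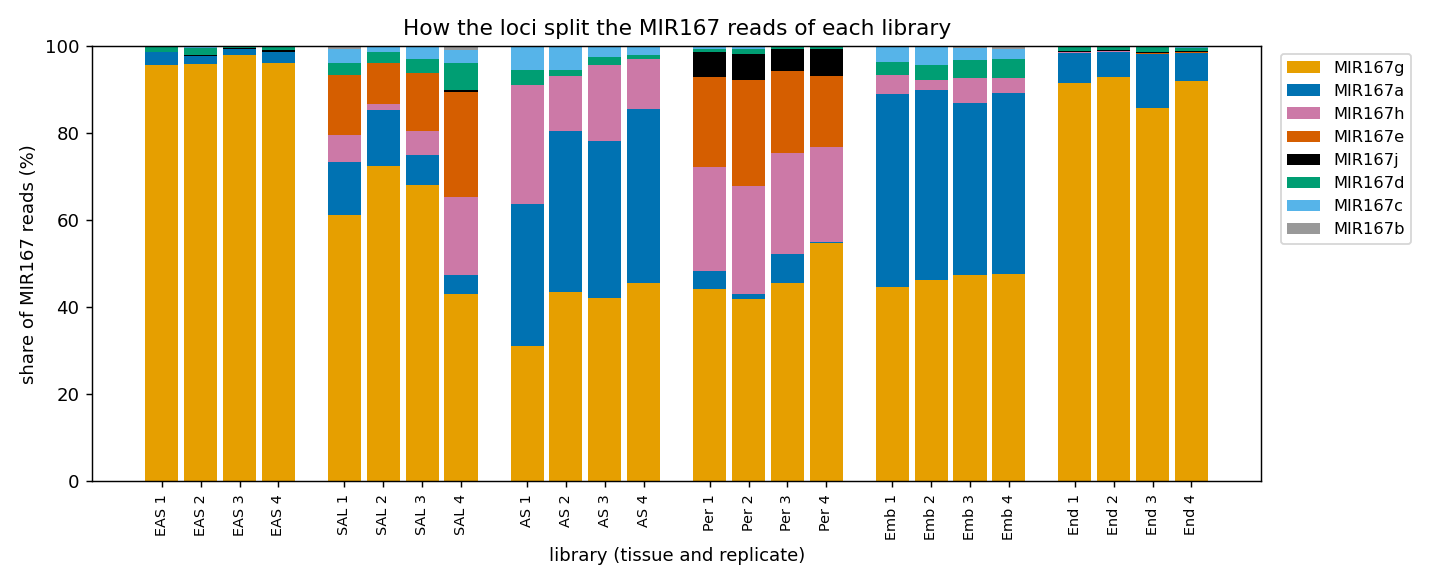
Share of MIR167 reads, in percent, held by each locus in each of the 24 libraries. MIR167g fills 85.7% or more of every EAS and End library, and MIR167e is seen in SAL and Per, at under 1% in End.

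MIR167e was a pericarp and aleurone-layer locus. It had 1.09, 0.758, 0.933 and 0.931 CPM in SAL, 1.36, 1.54, 1.46 and 1.34 in Per, and 0.0892, 0.116, 0.153 and 0.124 in End, and it held 0 reads in every library of EAS, AS and Emb. SAL and Per were thus the tissues in which it was read often, and their libraries did not overlap. It passed the low-count filter of the tests through them alone. Tests of MIR167e between SAL or Per and the other tissues are thus not independent of that. It was at least 53.6-fold lower in EAS than in SAL (edgeR adjusted p = 6.84e-10) and at least 6.76-fold lower in EAS than in End (edgeR adjusted p = 6.93e-06). It was at least 63.4-fold higher in SAL than in AS (edgeR adjusted p = 4.42e-10) and at least 69.6-fold higher in SAL than in Emb (edgeR adjusted p = 3.5e-10). SAL was above End (fitted log2 fold 2.93, SE 0.26, edgeR adjusted p = 1.56e-07) and slightly below Per (-0.60, SE 0.20, edgeR adjusted p = 0.0163). Its coefficient of variation was 14.6% in SAL and 6.46% in Per, where counting error alone gives 14.8% and 11.9%.

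MIR167h was highest in the pericarp, followed by the apical scutellum, and it was also read in every Emb and SAL library. It had 0.495, 0.108, 0.402 and 0.694 CPM in SAL, 1.28, 1.03, 0.984 and 0.767 in AS, and 1.59, 1.55, 1.80 and 1.81 in Per. Emb had 0.478, 0.375, 0.565 and 0.496 CPM and End 0.0594, 0.0582, 0 and 0.0745, and EAS held 0 reads in each of its libraries. The order of means was Per, AS, Emb, SAL, End and EAS, and Emb and SAL, adjacent in it, overlapped (fitted log2 fold -0.05, SE 0.33, for SAL against Emb, edgeR adjusted p = 0.888; log2 fold change 0.07 on library totals without TMM factors). It was the one tested locus higher in AS than in Emb (fitted log2 fold 1.09, SE 0.31, edgeR adjusted p = 0.00932), with every AS library above every Emb library. It was lower in EAS than in AS by at least 57.0-fold (edgeR adjusted p = 7.02e-10) and than in SAL by at least 27.4-fold (edgeR adjusted p = 4.41e-08). EAS was also called lower than End (edgeR adjusted p = 0.00451), but End held only 7 reads, which allows a fold of at least 2.78. The call of AS below Per (-0.73, SE 0.29, edgeR adjusted p = 0.0278) was lost without AS replicate 3 or 4 or Per replicate 3 or 4 (adjusted p from 0.0524 to 0.1).

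MIR167j, like MIR167e, was highest in pericarp, but it was all but unread in SAL. It had 0.0477, 0.132, 0.154 and 0.216 CPM in EAS, 0.391, 0.380, 0.386 and 0.507 in Per, and 0.0594, 0.175, 0.122 and 0.0745 in End. SAL held 1 read in all and AS and Emb held 0. The Per libraries lay above all others, and EAS and End overlapped (fitted log2 fold 0.35, SE 0.49, edgeR adjusted p = 0.555). MIR167j was higher in Per than in End (fitted log2 fold 1.93, SE 0.42, edgeR adjusted p = 0.000479) and at least 30-fold higher in Per than in Emb (edgeR adjusted p = 6.32e-08). Outside Per no library held more than 9 reads of it. It thus passed the low-count filter of the tests through Per alone, and its tests against Per are not independent of that. It was lower in SAL than in Per, where the ratio of reads, Per over SAL, was 78.6 with a 95% counting interval of 13.7 to 3142 (edgeR adjusted p = 5.09e-07), although MIR167e was read in all libraries of both tissues.

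MIR167d, like MIR167a, had its highest means in Emb and End, at lower levels: 0.489 ± 0.136 CPM in Emb beside 5.41 ± 1.33, and 0.584 ± 0.130 in End beside 4.91 ± 1.63. Between EAS and AS, MIR167d was higher in EAS (fitted log2 fold 1.87, edgeR adjusted p = 0.000112), with overlapping libraries. There MIR167a was lower in EAS (-1.20, edgeR adjusted p = 0.0222). That MIR167a call was lost with the replicate block and the 3 libraries of other date label left out (-0.99, adjusted p = 0.0745). It was also lost without EAS replicate 2 or 3 or AS replicate 2 (adjusted p from 0.0591 to 0.0686). MIR167d had 0.596, 0.572, 0.128 and 0.335 CPM in EAS, 0.218, 0.217, 0.225 and 0.237 in SAL, 0.163, 0.119, 0.1 and 0.0605 in AS, and 0.0459, 0.0661, 0.0644 and 0.0661 in Per. EAS, Emb and End overlapped and did not pass the test against each other (edgeR adjusted p from 0.194 to 0.476). AS was lower than Emb (fitted log2 fold -2.12, SE 0.37, edgeR adjusted p = 9.87e-05), a larger fall than those of MIR167a and MIR167g there, although the difference between the falls was not tested. The call of EAS above SAL (0.86, SE 0.36, edgeR adjusted p = 0.0319) had an adjusted p of 0.0519 with the replicate number as a block and 0.0521 by DESeq2. On library totals without TMM factors it was 0.37 with an adjusted p of 0.337, and with the 8 libraries of EAS and SAL alone the adjusted p was 0.0853. It was also lost without EAS replicate 1 or 2 or SAL replicate 1, 3 or 4 (adjusted p from 0.0521 to 0.134).

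MIR167c was highest in the embryo. It averaged 0.129 ± 0.0507 CPM in EAS, 0.173 ± 0.0720 in SAL, 0.246 ± 0.140 in AS, 0.0239 ± 0.0276 in Per, 0.406 ± 0.167 in Emb and 0.165 ± 0.0732 in End. Per, with 5 reads in all, lay below every library of the other 5 tissues, and it was lower than Emb (fitted log2 fold -3.88, SE 0.60, edgeR adjusted p = 2.81e-06) and lower than End (-2.61, SE 0.69, edgeR adjusted p = 0.00152). Emb was above End (1.27, SE 0.47, edgeR adjusted p = 0.0157), a call lost without Emb replicate 2 (0.94, adjusted p = 0.0840). AS did not pass the test against Emb (-0.73, SE 0.42, edgeR adjusted p = 0.187), and it did without AS replicate 2 (-1.16, adjusted p = 0.0486). MIR167b fell under the filter on low counts and was not tested. Its 20 reads were 2 in EAS, 5 in SAL, 12 in Emb and 1 in End, with 0 in AS and Per, and Emb was the only tissue in which each of the 4 libraries had a read of it.

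Of the 7 loci tested, each differed among the 6 tissues (edgeR F test over the tissues, adjusted p from 8.48e-14 for MIR167g to 7.30e-05 for MIR167c). So did 99.1% of all 26543 tested features, so that this count says little of the loci. Over the 15 pairs of tissues, 80 of 105 tests of a locus passed an adjusted p of 0.05. Of all tested features, 18.7% to 45.1% were called higher in a pair and 19.1% to 44.5% lower. The 80 is to be read against those shares, given next by pair, and is not a result about the loci.

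The endosperm pairs came first. In EAS against End, 0 loci were higher and 3 lower (MIR167a, MIR167e and MIR167h), where 30.1% and 32.3% of all features were. For that 0, edgeR without adjustment at 0.05 gave 0 too, and so did DESeq2, with 0. In SAL against End, 2 were higher and 4 lower, beside 45.1% and 31.0% of features. The higher ones were MIR167e and MIR167h, and those lower were MIR167a, MIR167d, MIR167g and MIR167j. On library totals without TMM factors MIR167d was not called there (-0.69, edgeR adjusted p = 0.0717, against -1.36 and 0.00137 with them). In EAS against SAL, 3 were higher (MIR167d, MIR167g and MIR167j) and 2 lower (MIR167e and MIR167h), beside 35.7% and 43.0%.

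Against the embryo, the loci split by direction. In AS against Emb, 1 was higher and 3 were lower, where 18.7% and 19.1% of features were, and the lower ones were MIR167a, MIR167d and MIR167g. EAS had 2 higher (MIR167g and MIR167j) and 3 lower than Emb, beside 40.7% and 43.2%. SAL had 1 higher (MIR167e) and 3 lower than Emb, beside 42.3% and 38.2%. In Per against Emb all 7 were called, 3 higher (MIR167e, MIR167h and MIR167j) and 4 lower, beside 44.2% and 39.2%. In Emb against End, 2 were higher (MIR167c and MIR167h) and 3 lower (MIR167e, MIR167g and MIR167j), beside 41.5% and 40.9%.

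The same 3 loci that were higher in Per than in Emb were higher in Per than in End, with 4 lower, beside 43.7% and 37.6% of features. EAS against Per had 4 higher and 3 lower, beside 39.6% and 43.2%, and SAL against Per had 3 higher and 3 lower, beside 36.0% and 34.7%. In AS against Per, 2 were higher (MIR167a and MIR167c) and 3 lower, beside 38.4% and 44.5%. AS against End had 1 higher (MIR167h) and 5 lower, beside 39.8% and 42.4%. Of these, MIR167a was not called on library totals without TMM factors (-0.62, edgeR adjusted p = 0.189, against -1.08 and 0.0268 with them). In EAS against AS, 3 were higher and 2 lower, beside 41.7% and 41.0%, and in SAL against AS, 3 were higher and 2 lower, beside 43.0% and 37.2%. With 7 loci, most of these counts lie near the shares of all features, so the directions of single loci, not the number called, are what the family shows. The median log2 fold change of the loci ran from -2.61 in Per against End to 2.23 in EAS against Per, with groups at 0 reads at their bound or not, while the median of all features ran from -0.14 to 0.24. TMM factors keep the median of all features near 0, and a median of 7 loci or fewer moves with single loci. The wider range is thus not a result about the family.

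**Figure D4:**
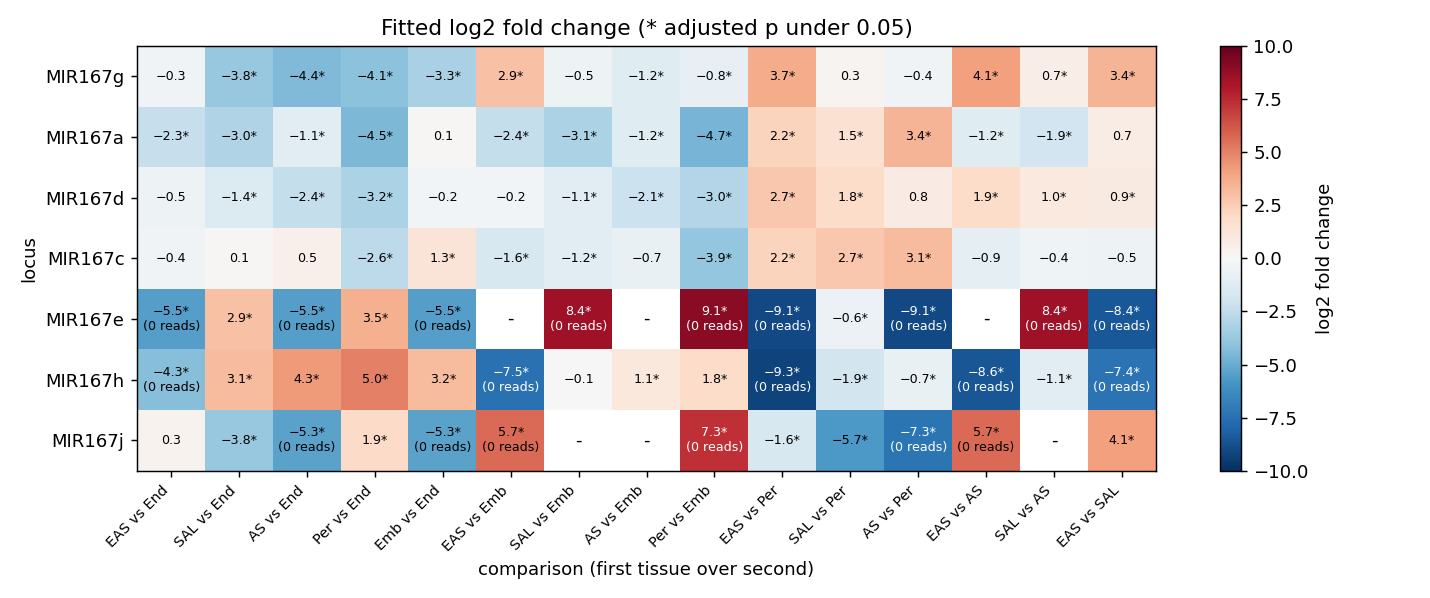
Fitted log2 fold change, first tissue over second, of the 7 tested loci in the 15 pairs of tissues; a star marks an adjusted p under 0.05, a dash marks pairs in which both tissues held 3 reads or fewer, and "0 reads" marks fits against a tissue with none, whose size depends on the prior count. MIR167e, MIR167h and MIR167j share their sign in Per against Emb and in Per against End, where MIR167a, MIR167c, MIR167d and MIR167g have the other.

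Other microRNA loci of the auxin pathway were the MIR160 rows, whose microRNA targets the repressing factors ARF10, ARF16 and ARF17, the MIR390 rows, which act through TAS3 on ARF2, ARF3 and ARF4, and the MIR393 rows, which target the TIR1 and AFB auxin receptors. Of these 10 rows, 5 were tested. Over the 15 pairs of tissues, 46 of their 75 tests passed. That count is to be read against the shares of all features called, given above by pair, and is not a result about these loci. In Per against Emb, 2 rose (MIR393a and MIR393c) and 3 fell (MIR160b, MIR160d and MIR390a), beside 44.2% and 39.2% of all features. In EAS against End, 0 rose and 0 fell, beside 30.1% and 32.3% of features, with 0 also by DESeq2 and 0 by edgeR at an unadjusted p under 0.05. MIR160d and MIR390a could not be called there, as both tissues held 0 reads of them. MIR393c had 0 CPM in EAS and 0.0136 in End. The 0 therefore does not show a lack of difference. In Emb against End 3 rose and 0 fell, beside 41.5% and 40.9%, and in AS against Emb 1 rose and 2 fell, beside 18.7% and 19.1%. MIR160d was read in AS at 2.72 ± 0.162 CPM and in Emb at 1.82 ± 0.329, with 0 reads in EAS, SAL, Per and End. MIR390a was at 2.60 ± 0.646 CPM in Emb and 0.201 ± 0.146 in AS, and held 0 reads in EAS and End. MIR393c was at 1.65 ± 0.618 CPM in Per and at 0.0920 ± 0.0711 or less in the other tissues. In EAS and End, where MIR167g was highest, each of the 5 averaged 0.164 CPM or less. Low levels were not particular to those tissues, as in SAL each but MIR393a (0.472 CPM) averaged 0.0920 CPM or less. A link with the level of MIR167g was not tested.

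The microRNA loci outside the family whose levels followed a MIR167 locus most closely were found by Pearson's r of log2 CPM over the 24 libraries, which share tissue and depth, and no p is given. For MIR167e they were MIR171f (r = 0.96) and MIR396a (0.92), and for MIR167h they were MIR168b (0.85) and MIR159a (0.80). Unlike MIR167h, MIR159a was highest in Emb, at 7.44 ± 0.402 CPM beside 1.67 ± 0.217 in Per and 0.644 ± 0.105 in AS. MIR171f had 0.344 ± 0.153 CPM in SAL, 2.05 ± 0.263 in Per and 0.216 ± 0.0842 in End, with 0 reads in EAS, AS and Emb, the same 3 tissues without a read as for MIR167e. The nearest to MIR167a, MIR169o (0.71) and MIR398b (0.65), to MIR167c, MIR398a (0.67) and MIR169c (0.65), and to MIR167j, MIR396d (0.70) and MIR166h (0.65), were less like. For MIR167d, no microRNA locus exceeded 0.37 (MIR319a, followed by MIR156j at 0.30).

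MIR167g had no close microRNA locus either, with r = 0.54 for MIR156j and 0.48 for MIR159f. The gene identifiers nearest to it were Zm00001d024298 and Zm00001d040834, both at r = 0.97. The first averaged 19.0 ± 0.888 CPM in EAS, 22.3 ± 0.832 in End and 8.78 to 11.3 in the other tissues, and the second 63.5 ± 5.20 in EAS, 76.3 ± 2.03 in End and 19.0 to 23.2 elsewhere. Between the MIR167 loci themselves, the highest r was 0.70, for MIR167a and MIR167c, and the lowest was -0.91, for MIR167g and MIR167h. The neighbours MIR167a and MIR167g stood at 0.36.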

How the data were processed

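The authors deposited 1 table of raw counts per library, whole numbers of reads for each gene or microRNA locus, with the 5 summary rows of htseq-count kept out of library sizes and tests. Per the labels' protocols, RNA was selected by poly(A) and sequenced from both ends without strand. TopHat2, Bowtie2 and the build B73 RefGen_v4 are listed, per the submitters' processing notes. Their versions, the annotation and the counting mode were not given in the sources used here. Alignments without a unique place, 7.81% to 16.2% of the rows' total, and those ambiguous between overlapping genes, 1.07% to 2.63%, are not in any gene's count, so loci with near-identical copies or inside another annotated gene may be under-counted. Without strand, antisense reads cannot be told apart.

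Counts were fitted in R 4.3.3 with edgeR 4.0.16: filterByExpr with a minimum count of 10, TMM factors, a robust quasi-likelihood model of tissue over all 24 libraries, and Benjamini-Hochberg adjustment within each comparison over 26543 features, tested on simulated data beforehand. The SE is the log2 fold change divided by the square root of F, not a fitted standard error. A fold against 0 reads is a lower bound from 3 reads over the tissue. Ratios and shares were compared by exact permutation tests. DESeq2 1.42.0 and other settings were alternatives. Precursor lengths and neighbours come from RefSeq on NAM-5.0, in which 153 of the 154 microRNA names matched.

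The labels give same-numbered libraries a shared harvest day (27 April, 1 May, 4 May and 18 May), apart from EAS replicate 3, Emb replicate 1 and SAL replicate 4, whose date labels differ or are missing. Deviations from tissue means correlated on average at 0.0671 to 0.115 between same-numbered libraries and at -0.0298 between others. Replicates are biological ones according to the series design; how many plants went into each is not labelled. Replicate libraries of a tissue were not duplicates (chi-square per degree of freedom at least 7.32). The members, lists and tests were chosen with earlier results of these data known. The fixed rule described each locus with 10 reads or more, the 2 most similar microRNA loci for each, and 2 gene identifiers for MIR167g; MIR167b and MIR167c meet the rule but were not in the list of 6 loci first named. Sequences are not printed, as none were at hand.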

Additional observations from a re-analysis of the deposited data

Results flagged for a closer look

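In 6 of 52 sets of 4 libraries, 1 library stood far from the other 3, where chance flags about 1 in 20 sets of continuous values. In 3 of the 6, only 1 library had any read, which sets the flag by construction, so the count is not to be read against that share. For MIR167a in End it was replicate 3, at 7.34 CPM, and in that library MIR167g was the lowest of its tissue. For MIR167j in Per it was replicate 4, at 0.507 CPM, and for MIR167d in Per replicate 1, at 0.0459 CPM, which is 2 reads. The sets with reads in 1 library were MIR167b in EAS at 0.0440 CPM, MIR167b in End at 0.0248 CPM and MIR167j in SAL at 0.0169 CPM, the last in the library with no harvest date.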

How the results depend on the processing

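Of 99 log2 fold changes of a locus between tissues, 76 kept their direction and their side of the threshold under all alternatives that could be fitted, and no called one changed sign. Library totals without TMM factors brought the median log2 fold change of all features to as much as 0.92 (SAL against End, beside 0.24 with the factors), and with it the uncalled MIR167d in Emb against End was 0.30 and MIR167h in SAL against Emb 0.07. The same setting ended the calls of MIR167a in AS against End, MIR167d in SAL against End and MIR167d in EAS against SAL, with the values given above, and added that of MIR167c in EAS against AS (-1.17, adjusted p = 0.035). With 1 library left out, uncalled changes crossed 0: MIR167a in Emb against End ranged from -0.01 to 0.40, MIR167c in EAS against End from -0.55 to 0.01 and in SAL against End from -0.13 to 0.48, MIR167d in EAS against Emb from -0.49 to 0.03, and MIR167h in SAL against Emb from -0.36 to 0.15. The share of MIR167g in Per minus Emb ranged from -2.58 to 1.68 percentage points, and the log2 ratio of MIR167g to MIR167a in AS minus Emb from -0.04 to 0.07.

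Called loci numbered 80, and 75 to 80 with 1 library left out; by pair, the ranges were 3 to 5 for AS against Emb, SAL against Emb and SAL against AS, 5 to 7 for SAL against Per, and within 1 of the full count elsewhere. Fitting only the 2 tissues compared tested fewer loci, and called 3 in Emb against End, 3 in EAS against AS and 2 in EAS against SAL, where 5, 3 and 4 were tested. The call of MIR167g in SAL above AS (0.66, adjusted p = 0.0454) was lost in most alternatives, with an adjusted p of 0.0542 with the replicate block, 0.0765 without a low-count filter and 0.154 without AS replicate 1. The replicate block ended no calls of loci other than this one and those named above; with the 3 libraries of other date label left out as well, MIR167a in EAS against AS (-0.99, adjusted p = 0.0745), MIR167c in SAL against Emb (-0.80, 0.171) and MIR167e in SAL against Per (-0.62, 0.0585) were not called, and MIR167g in SAL against Per was (0.68, 0.0112). Of 75 tests of the auxin-linked loci 46 passed, 42 to 47 with 1 library left out, 41 with the block and those 3 libraries left out, and 32 with only the 2 tissues compared.

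The permutation tests had no room for fewer libraries: paired by replicate block the smallest p is 0.125, and 0 pairs passed for the share and 0 for the ratio, and with 1 library left out 0 to 0 passed, since 3 against 4 cannot go below 0.0571 and the adjustment takes the others along. The share of MIR167g among MIR167a and MIR167g alone, another quantity, differed by 1.98 percentage points in Per against End, by 0.0179 in AS against Emb and by -6.45 in SAL against Per, signs opposite to those of the share of all MIR167 reads. Depth limits MIR167b, MIR167j and MIR167c, with few reads a library.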
